A study of Mus musculus with 6 samples.

Results

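The genes described here are the 5 NF-κB subunits (Nfkb1, Nfkb2, Rel, Rela and Relb), the 3 classical IκB inhibitors (Nfkbia, Nfkbib and Nfkbie) and 2 atypical IκB proteins (Nfkbiz and Bcl3). They were selected by gene symbol, and the 10 genes make up 10 of the 57010 rows of the count table. RNA-seq was performed on 6 libraries of primary neonatal mouse cardiomyocytes (NMCMs), heart muscle cells isolated from newborn C57BL/6 mice and kept in culture under hypoxia (HO). Libraries V1 to V3 came from the HO + Vehicle group and libraries T4 to T6 from the HO + β-SITO group, which received the plant sterol β-sitosterol. All 6 libraries were hypoxic, no normoxic library was used here, and the dose and duration of β-SITO for these libraries were not stated in the sources used here. NMCMs were separated from fibroblasts only by differential adhesion, and nothing says whether the 3 libraries of a group were separate cultures, so p-values measure the spread between these libraries. The comparison asks how the transcripts of this family differed between libraries labelled as hypoxic NMCMs with and without β-SITO.

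NF-κB is a family of dimeric transcription factors assembled from p105/p50 (Nfkb1), p100/p52 (Nfkb2), c-Rel (Rel), p65 (Rela) and RelB (Relb). In resting cells the classical IκB proteins hold the dimers in the cytoplasm. The IKK kinases mark IκB for degradation, and the freed dimers then bind κB sites in inflammatory genes, which include several genes of the family itself. Atypical IκB proteins act in the nucleus, where IκBζ (Nfkbiz) and Bcl-3 (Bcl3) join p50 or p52 dimers at chosen target genes. In the heart the pathway is known for driving cytokine and adhesion molecule expression after ischemia.

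κB sites were looked for near the start of the genes, since several members are themselves known NF-κB targets. RefSeq promoter windows of 300 bases (250 before and 50 after a start, build GRCm38.p6) were given for 7 of the 10 genes, namely Nfkb2, Rel, Rela, Nfkbia, Nfkbib, Nfkbie and Bcl3. Windows for Nfkb1, Relb and Nfkbiz were not given. The 10-base κB consensus was searched on both strands, and overlapping matches were counted as 1 site. It was present for 5 of the 7 genes, and these letters were not in the windows of Rela and Nfkbib. Across all genes with a window, 9.55% of 27025 had a match, and 8.46% of all 32851 windows had one. A narrower form, which allows only A or T as the sixth base of the matched strand, was present for the same 5 genes. It matched 5.14% of all genes with a window and 4.51% of windows. The sites below show how close to the start the match lies, with the match in capitals and 10 bases of context before it. Letters are printed on the strand of the gene. The match at Nfkbia, and that of the narrower form at Bcl3, reads on the other strand.
Nfkbia, chr12:55492657-55492686 (−), first matched base at −29, outside annotated exons: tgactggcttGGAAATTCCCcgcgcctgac
Nfkbie, chr17:45555584-45555613 (+), first matched base at −106, outside annotated exons: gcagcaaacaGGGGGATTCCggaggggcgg
Rel, chr11:23771042-23771071 (−), first matched base at −92, outside annotated exons: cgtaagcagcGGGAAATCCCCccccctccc
Nfkb2, chr19:46304688-46304717 (+), first matched base at −39, in an exon of a longer Nfkb2 transcript and of a transcript on the other strand: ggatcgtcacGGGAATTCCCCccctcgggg
Nfkb2, chr19:46305695-46305724 (+), first matched base at 11 after a downstream start, in an Nfkb2 exon: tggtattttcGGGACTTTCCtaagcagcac
Bcl3, chr7:19822734-19822763 (−), first matched base at 3 after the start, in a Bcl3 exon: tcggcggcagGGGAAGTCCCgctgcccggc
Positions were counted from the annotated start, with negative values before it, and exons were those of GENCODE vM21. For Nfkb2, a longer transcript means only that an annotated Nfkb2 exon reaches upstream of this start. Nfkb2 held 2 further sites, at −11 from its first start and at −236 from its second. The surroundings of the site were printed at greater length for the inhibitors Nfkbie and Nfkbia, which had the lowest log2 fold changes of the genes with a window (values below), as the 120 bases before the start.
Nfkbie, chr17:45555580-45555699 (+): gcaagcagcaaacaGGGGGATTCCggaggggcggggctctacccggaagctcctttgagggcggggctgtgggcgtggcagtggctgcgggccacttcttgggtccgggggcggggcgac
Nfkbia, chr12:55492648-55492767 (−): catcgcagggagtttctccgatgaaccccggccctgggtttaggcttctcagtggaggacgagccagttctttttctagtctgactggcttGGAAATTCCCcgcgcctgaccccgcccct
A match describes letters only, and no binding was measured in these libraries.

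Each library held between 16694734 and 18460522 counts, and 14799 genes passed the filter on low counts, including all 10 members. Levels are given as CPM, counts scaled to a common library size, with TMM factors of 0.945 to 0.956 for V1 to V3 and 1.05 to 1.06 for T4 to T6. Differences were tested by the quasi-likelihood method of edgeR, with p-values adjusted after Benjamini-Hochberg over all tested genes, and DEGs had an adjusted p under 0.05 with more than 2-fold change. The 10 genes together took 0.117% to 0.122% of all counts in V1 to V3 and 0.0333% to 0.0355% in T4 to T6. The names of libraries T4 to T6 share a suffix that V1 to V3 lack, and whatever it marks cannot be told apart from β-SITO.

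All 10 genes were lower with β-SITO. At an adjusted p under 0.05, 10 of 10 were lower against 33.8% of all tested genes, and 0 of 10 were higher against 33% of all tested genes. As DEGs, 9 of 10 were lower against 10.1% of all tested genes, and 0 of 10 were higher against 12.8%. At an unadjusted p under 0.05, and as DEGs of limma-voom or DESeq2, 0 of 10 were higher as well. Vehicle and β-SITO libraries did not overlap for 10 of 10 genes, against 70.5% of all tested genes. The median log2 fold change of the 10 genes was −2.44, beside −0.0073 over all tested genes. By role within the 10 genes, 4 of 5 subunits, 3 of 3 classical inhibitors and 2 of 2 atypical proteins were DEGs. Their median log2 fold changes were −1.27, −2.78 and −2.57.

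**Figure D1:**
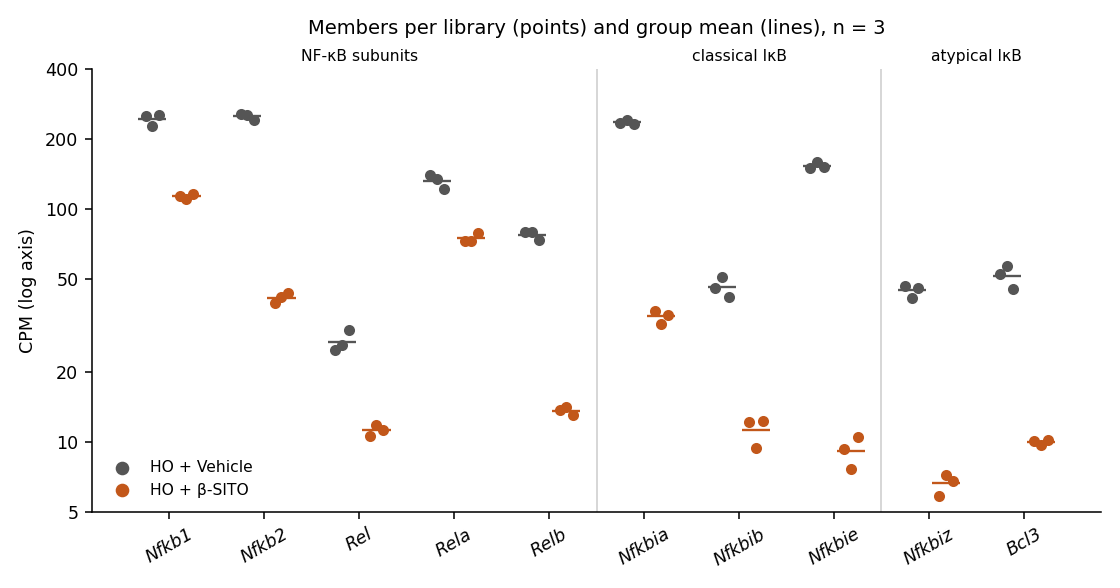
CPM (log axis) of each of the 10 genes in every library, with grey points for HO + Vehicle, orange points for HO + β-SITO and a line at each group mean (n = 3). In each gene all orange points lie below all grey points, and the gap is narrowest for Rela (122 to 141 against 72.9 to 78.9 CPM) and widest for Nfkbie (150.0 to 160.2 against 7.64 to 10.5 CPM).

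Of the subunits, Nfkb2 and Relb fell furthest. Nfkb2 encodes p100, whose processing to p52 is the hallmark of the non-canonical pathway. It lies at chr19:46292759-46300824 on the plus strand (GRCm39, as in the deposited table). Its level was 257, 255 and 243 CPM in V1 to V3 and 39.5, 41.7 and 43.5 CPM in T4 to T6. The β-SITO libraries thus kept 16.5% of the vehicle mean, a log2 fold change of −2.60 ± 0.0625 (SE, n = 3 per group, edgeR adjusted p = 1.04e-14). Relb, the usual partner of p52, lies at chr7:19340142-19363363 on the minus strand. Its level was 79.8, 79.6 and 73.5 CPM in the vehicle libraries and 13.7, 14.1 and 13.0 CPM with β-SITO. This was 17.5% of the vehicle mean (log2 fold change −2.52 ± 0.0731, edgeR adjusted p = 1.04e-13). The 95% intervals of the fold changes of Nfkb2 (−2.73 to −2.46) and Relb (−2.67 to −2.36) overlapped.

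The subunits of the canonical dimers fell less. Nfkb1 encodes p105, the precursor of p50, and lies at chr3:135290416-135397308 on the minus strand. Its level was 253, 228 and 253 CPM in V1 to V3 and 114, 111 and 116 CPM in T4 to T6. That is 46.4% of the vehicle mean, with a log2 fold change of −1.11 ± 0.0606 (95% interval −1.24 to −0.98, edgeR adjusted p = 2.51e-10). The interval reaches past the 2-fold limit, and Nfkb1 was no longer a DEG when the counts were scaled by library size alone (log2 fold change −0.96) or when edgeR's glmTreat tested against 2-fold (adjusted p = 0.0772). Rel, whose product c-Rel is best known from immune cells, lies at chr11:23686847-23720970 on the minus strand. Its level was 24.7, 26 and 30.1 CPM with vehicle and 10.6, 11.8 and 11.2 CPM with β-SITO. It kept 41.6% of the vehicle mean, and its log2 fold change was −1.27 ± 0.0964 (edgeR adjusted p = 1.42e-08). Rela encodes p65, the activating subunit of the p50/p65 dimer, and lies at chr19:5687511-5698158 on the plus strand. Its level was 141, 135 and 122 CPM with vehicle and 73.0, 72.9 and 78.9 CPM with β-SITO. Rela kept 56.5% of the vehicle mean, the highest share of the 10 genes. Its log2 fold change of −0.82 ± 0.0660 (95% interval −0.96 to −0.68, edgeR adjusted p = 2.58e-08) passed the test and missed the 2-fold limit, which made Rela the 1 member that was not a DEG.

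All 3 classical inhibitors fell. Nfkbia encodes IκBα, the inhibitor that is resynthesized within each round of NF-κB activation, and lies at chr12:55536195-55539432 on the minus strand. Its level was 235, 243 and 233 CPM in V1 to V3 and 36.3, 32.2 and 35.1 CPM in T4 to T6. It kept 14.6% of the vehicle mean (log2 fold change −2.78 ± 0.0643, edgeR adjusted p = 6.53e-15). Nfkbie encodes IκBε, which also acts as a feedback inhibitor, and lies at chr17:45866629-45874095 on the plus strand. Its level was 150.0, 160.2 and 152 CPM with vehicle and 9.30, 7.64 and 10.5 CPM with β-SITO. This is 5.93% of the vehicle mean, the lowest share of the 10 genes, with a log2 fold change of −4.07 ± 0.0893 (95% interval −4.26 to −3.88, edgeR adjusted p = 3.52e-15). Of all tested genes, 1.90% had a lower log2 fold change than Nfkbie. Nfkbib encodes IκBβ, which takes less part in the rapid feedback, and lies at chr7:28457676-28466937 on the minus strand. Its level was 46.0, 50.8 and 41.9 CPM with vehicle and 12.1, 9.39 and 12.3 CPM with β-SITO. It kept 24.4% (log2 fold change −2.03 ± 0.105, edgeR adjusted p = 1.25e-10), and the interval of its change (−2.26 to −1.81) did not overlap those of Nfkbia (−2.91 to −2.64) and Nfkbie.

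The 2 atypical IκB genes among the 10 members fell as well. A further atypical gene, Nfkbid, is not a member, was low and did not pass the test (edgeR adjusted p = 0.781, given below). Nfkbiz, which is induced by IL-1 and Toll-like receptors and is needed for a secondary set of targets, lies at chr16:55631738-55659262 on the minus strand. Its level was 46.9, 41.6 and 45.9 CPM in V1 to V3 and 5.86, 7.19 and 6.77 CPM in T4 to T6. It kept 14.8% of the vehicle mean (log2 fold change −2.76 ± 0.0954, edgeR adjusted p = 8.24e-13). Bcl3 lies at chr7:19542387-19556695 on the minus strand. Its level was 52.7, 56.8 and 45.4 CPM with vehicle and 10.1, 9.67 and 10.2 CPM with β-SITO. It kept 19.3% (log2 fold change −2.37 ± 0.0944, edgeR adjusted p = 5.05e-12).

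Ordered by fold change, the 10 genes fell into 4 stretches whose 95% intervals did not overlap at the boundaries. Nfkbie stood alone at the lower end. Nfkbia, Nfkbiz, Nfkb2, Relb, Bcl3 and Nfkbib followed, and each overlapped its neighbour in this order. Rel and Nfkb1 overlapped each other, and Rela had the smallest change.

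**Figure D2:**
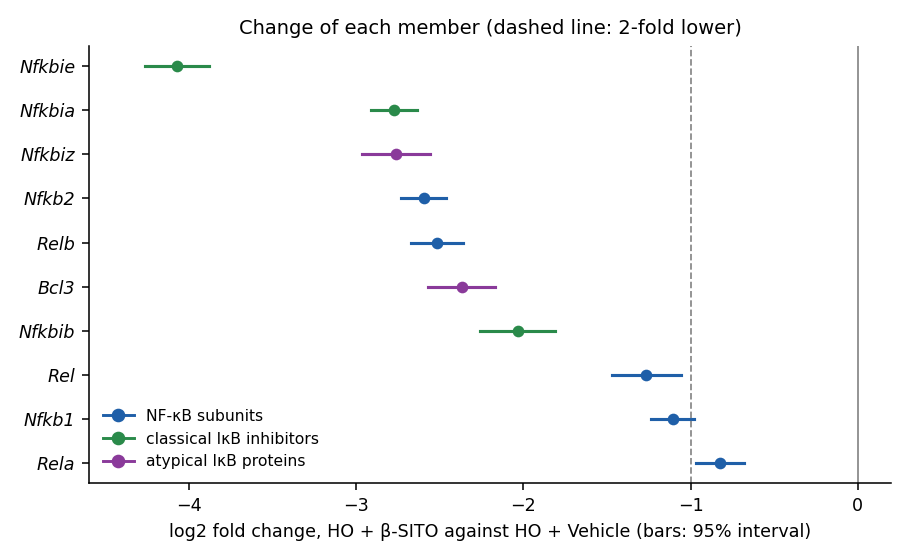
Log2 fold change of HO + β-SITO against HO + Vehicle for the 10 genes, with 95% intervals from the edgeR fit, coloured by role and ordered by size. Nfkbie (−4.07) is farthest to the left and Rela (−0.82) farthest to the right, and the point of Rela lies to the right of the dashed line of 2-fold change.

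The unequal changes altered how the transcripts of the family were shared out. Levels of different genes were compared as CPM per kb of exon length (all annotated exons of the gene in GENCODE vM21). On that scale the HO + Vehicle libraries held most of Nfkbia (147 CPM per kb), followed by Nfkb2 (54.9), Nfkbie (50.6) and Rela (43.2). Nfkbib, Bcl3, Nfkb1 and Relb came next at 20 to 21.3 CPM per kb with overlapping libraries between neighbours, and Nfkbiz (8.93) and Rel (3.61) were lowest. With β-SITO the order began with Rela (24.4 CPM per kb) and Nfkbia (21.5), then Nfkb1 (9.42) and Nfkb2 (9.07), whose libraries overlapped. Nfkbie had moved from the third place to the eighth (3.0 CPM per kb), where its libraries overlapped those of Relb (3.50). This order depends on the length used, because the annotated exons of Nfkb1 add up to 12.1 kb and its longest principal transcript to 4.12 kb. By principal transcript, Nfkb1 was at 59.4 CPM per kb with vehicle, above Rela (48.8), Relb (35.2), Bcl3 (27.9) and Nfkbib (22.4). With β-SITO, Nfkb1 and Rela were then both at 27.6 CPM per kb, above Nfkbia (21.9) and Nfkb2 (13.2). Nfkbie took the third place with vehicle (63.3) and the eighth with β-SITO (3.75) on this length too.

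Among the 5 subunits, Rela took 30.4% ± 1.13 (SD, n = 3) of the summed CPM per kb with vehicle and 50.9% ± 0.739 with β-SITO. Nfkb1 took 14.3% ± 1.04 and then 19.7% ± 0.450. The non-canonical subunits took smaller shares with β-SITO, Nfkb2 18.9% ± 0.442 after 38.7% ± 0.427 and Relb 7.31% ± 0.494 after 14.1% ± 0.282. Rel took 2.55% ± 0.359 and 3.14% ± 0.182. Among the 3 classical inhibitors, Nfkbie went from 23.1% ± 0.270 to 10.1% ± 0.923, Nfkbib from 9.72% ± 0.664 to 17.5% ± 1.17 and Nfkbia from 67.2% ± 0.649 to 72.5% ± 2.0. These shares are descriptions without a test, and their size depends on the length used as well. By principal transcript, Nfkb1 and Rela took 36.3% each with β-SITO, after 26.2% and 21.5% with vehicle, and all 8 shares moved in the same direction as before.

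**Figure D3:**
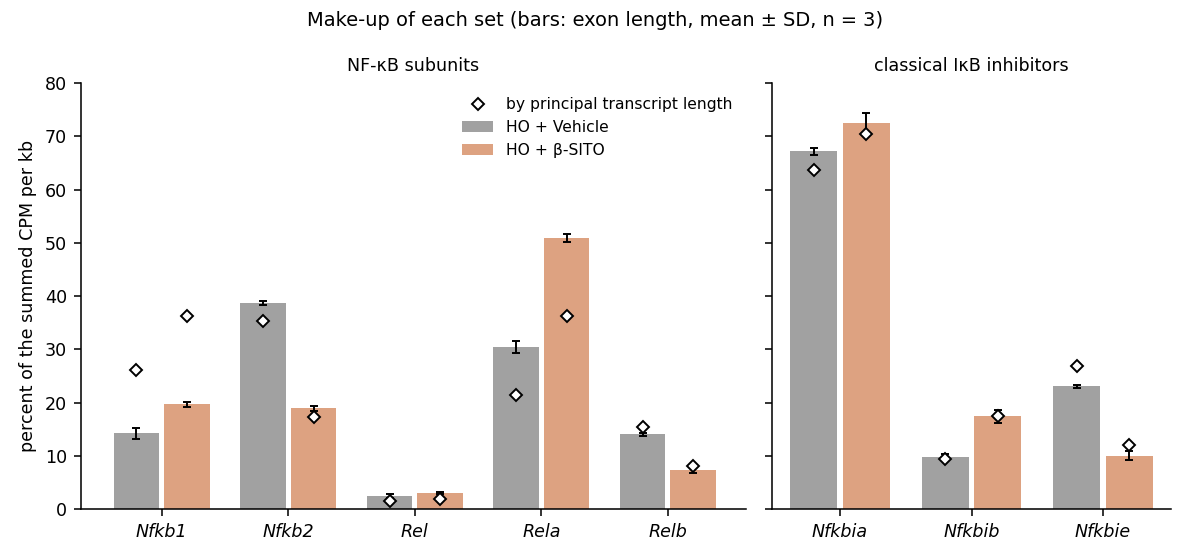
Percent of the summed CPM per kb taken by each subunit (left) and each classical inhibitor (right) in HO + Vehicle (grey) and HO + β-SITO (orange), as mean ± SD of 3 libraries, with diamonds for the mean by length of the principal transcript. Nfkb2, Relb and Nfkbie take smaller shares with β-SITO and Nfkb1, Rela and Nfkbib larger ones on both lengths.

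As sums, the transcripts of the 3 classical inhibitors kept less of their vehicle level than those of the 5 subunits. Nfkb1 and Nfkb2, which encode p105 and p100, were counted only as subunits, and the comparison rests on this assignment. The 5 subunits added up to 734 ± 18.7 CPM with vehicle and 255 ± 6.83 CPM with β-SITO (mean ± SD, n = 3), or 34.7% of the vehicle sum. The 3 classical inhibitors added up to 437 ± 14.4 and 54.9 ± 4.94 CPM, or 12.6%. Per kb, the inhibitor sum was 147%, 159% and 157% of the subunit sum in V1 to V3 and 66.8%, 56.9% and 62.2% in T4 to T6. By principal transcript the means were 104% and 40.9%, so whether the inhibitor sum exceeded the subunit sum with vehicle depends on the length. These are transcript levels, and no IκB or NF-κB protein was measured in these libraries.

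Ratios of counts of 2 genes within a library do not depend on the scaling between libraries, and 7 were tested. The ratio of Nfkb2 to Nfkb1 was 1.02, 1.12 and 0.960 in V1 to V3 and 0.347, 0.376 and 0.375 in T4 to T6. The ratio of Relb to Rela was 0.567, 0.590 and 0.601 with vehicle and 0.187, 0.193 and 0.165 with β-SITO. On the log2 scale these ratios differed by −1.49 ± 0.0916 and −1.69 ± 0.0900 (difference of means ± pooled SD). The ratio of Rel to Rela differed less (−0.44 ± 0.192), from 0.175, 0.193 and 0.246 to 0.145, 0.162 and 0.142. Nfkbie against Nfkbib went from 3.26, 3.15 and 3.63 to 0.767, 0.814 and 0.852 (−2.04 ± 0.0918). Nfkbia against Nfkbib differed by −0.74 ± 0.125 and Nfkbia against Rela by −1.96 ± 0.0977. For these 6 ratios the groups did not overlap, and the exact two-sided permutation p was 0.1 (adjusted p = 0.117), which is the smallest that 3 against 3 libraries can give. The ratio of Nfkbiz to Bcl3 overlapped between groups (0.733 to 1.01 with vehicle, 0.582 to 0.744 with β-SITO, exact permutation p = 0.2).

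**Figure D4:**
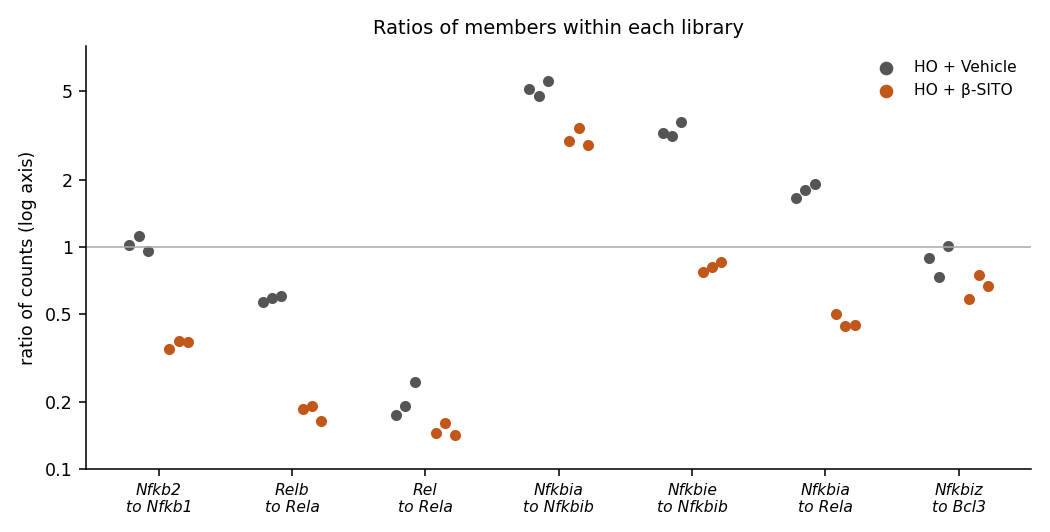
Ratio of the counts of 2 members within each library (log axis), with grey points for HO + Vehicle and orange points for HO + β-SITO. The groups are separate in 6 of the 7 ratios and overlap for Nfkbiz to Bcl3.

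The pathway lists were chosen with earlier results of these data known. Of 10 genes of the IKK complex and its activating kinases, 2 were DEGs, both lower, against 10.1% of all tested genes. At an adjusted p under 0.05, 5 were lower against 33.8% and 2 higher against 33% (median log2 fold change −0.18). Ikbkb, the catalytic subunit IKKβ of the canonical pathway, was at 85.7, 82.7 and 86.7 CPM with vehicle and 46.6, 42.3 and 40.9 CPM with β-SITO (log2 fold change −0.98, edgeR adjusted p = 3.27e-09). Chuk, which encodes IKKα, had a log2 fold change of −0.57 (adjusted p = 4.80e-06). Ikbkg, the scaffold NEMO, did not pass the test (−0.11, adjusted p = 0.115). Map3k14, the kinase NIK of the non-canonical pathway, was higher with β-SITO, at 9.87, 10.2 and 9.73 CPM after 6.38, 6.64 and 7.07 CPM (log2 fold change 0.57, adjusted p = 3.89e-04). It thus moved opposite to Nfkb2 and Relb. The 2 DEGs, named after their values were seen, were the IKK-related kinases Ikbke (log2 fold change −2.82) and Tbk1 (−1.38).

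Of 12 ubiquitin ligases and adaptors upstream of IKK and IκB, 5 were DEGs, all lower, against 10.1% of all tested genes. At an adjusted p under 0.05, 10 were lower against 33.8% of all tested genes (median −0.44). Birc3 and Birc2 encode cIAP2 and cIAP1, which restrain NIK and ubiquitinate RIPK1. Birc3 was at 181, 177 and 191 CPM with vehicle and 18.2, 17.1 and 17.1 CPM with β-SITO (log2 fold change −3.39), and Birc2 had a log2 fold change of −2.83. Fbxw11, a receptor subunit of the ligase that marks phosphorylated IκB, had a log2 fold change of −0.43 (edgeR adjusted p = 6.24e-06). Btrc, the other receptor of that ligase, named after its value was seen, did not pass the test (−0.04 ± 0.0779, adjusted p = 0.707). Of 5 tested receptors of the non-canonical pathway, 3 were DEGs and lower, against 10.1% of all tested genes. At an adjusted p under 0.05, 4 were lower against 33.8% and 1 was higher against 33% (median −1.29). The log2 fold change was −5.17 for Cd40, −1.40 for Tnfrsf1b and −0.57 for Ltbr, the lymphotoxin β receptor. Cd40 is also in the list of canonical target genes.

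Other negative regulators fell with the IκB genes. Of 10 feedback inhibitors and deubiquitinases, 7 were DEGs and lower, against 10.1% of all tested genes. The list held 1 DEG that was higher, against 12.8% of all tested genes (median log2 fold change −1.41). Tnfaip3, the ubiquitin-editing enzyme A20, was at 242, 227 and 241 CPM with vehicle and 11, 13.2 and 10.5 CPM with β-SITO (log2 fold change −4.36, edgeR adjusted p = 6.98e-16). Tnip1, which binds A20, was at 748, 777 and 731 CPM and then 67.5, 61.4 and 68.1 CPM (log2 fold change −3.52). The deubiquitinase Cyld had a log2 fold change of −1.13, and Otulin, which removes linear ubiquitin chains, did not pass the test (−0.06, adjusted p = 0.575). The 1 DEG that was higher, named after its value was seen, was Pdlim2 (log2 fold change 2.61), which encodes a nuclear ubiquitin ligase known to act on p65.

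Other IκB-like and IκB-binding genes mostly missed the test. Of the 4 such genes, Nfkbid, Nfkbil1, Nkiras1 and Nkiras2, 0 were DEGs with edgeR, limma-voom or DESeq2. With edgeR, 10.1% of all tested genes were DEGs and lower and 12.8% DEGs and higher. At an adjusted p under 0.05, 1 of the 4 was lower against 33.8% of all tested genes (median −0.01). The count was the same at an unadjusted p under 0.05. The gene that passed was Nkiras2 (log2 fold change −0.19, edgeR adjusted p = 0.0153). Nfkbid, the atypical protein IκBNS, was low, at 0.868 to 1.07 CPM with vehicle and 0.874 to 1.2 CPM with β-SITO (log2 fold change 0.10 ± 0.288, edgeR adjusted p = 0.781). Nfkbil1 had a log2 fold change of 0.16 ± 0.144 (adjusted p = 0.346).

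Known targets of the pathway had lower log2 fold changes at the median than the 10 genes. Of 25 canonical target genes 24 were DEGs and lower, against 10.1% of all tested genes. Their median log2 fold change was −5.09, or −4.87 with 1 gene near 0 counts set at its bound. The 3 most abundant were the adhesion molecule Vcam1 (4594, 4476 and 5019 CPM, then 235, 229 and 204 CPM, log2 fold change −4.40) and the chemokines Ccl2 (−7.15) and Cxcl10 (−10.42). The target that did not pass, named after its value was seen, was Bcl2a1b (log2 fold change −0.03, edgeR adjusted p = 0.909). This list holds genes long known as NF-κB targets, many of which also answer to other factors. Of 5 listed genes that depend on IκBζ, 5 were DEGs and lower, against 10.1% of all tested genes. Their median was −4.87 when the 2 genes near 0 counts with β-SITO were set at their bounds. Il6 and other genes of this list are also among the canonical targets, so the lists overlap. Lcn2, an iron-binding protein of innate immunity, was at 481, 532 and 488 CPM and then 1.64, 1.41 and 1.09 CPM, and Il6 at 97.6, 100.4 and 105 CPM and then 4.37, 2.70 and 3.49 CPM. Il12b held 575, 493 and 626 counts with vehicle and 0, 0 and 1 counts with β-SITO. Of 4 tested targets of the non-canonical pathway 3 were DEGs and lower, against 10.1% of all tested genes. Their median was −3.74 when 1 gene was set at its bound. Cxcl13 had a log2 fold change of −6.21, Ccl19 held 82, 125 and 92 counts with vehicle and 0, 0 and 2 with β-SITO, and Cxcl12, the most abundant, did not pass the test (−0.11, adjusted p = 0.183).

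**Figure D5:**
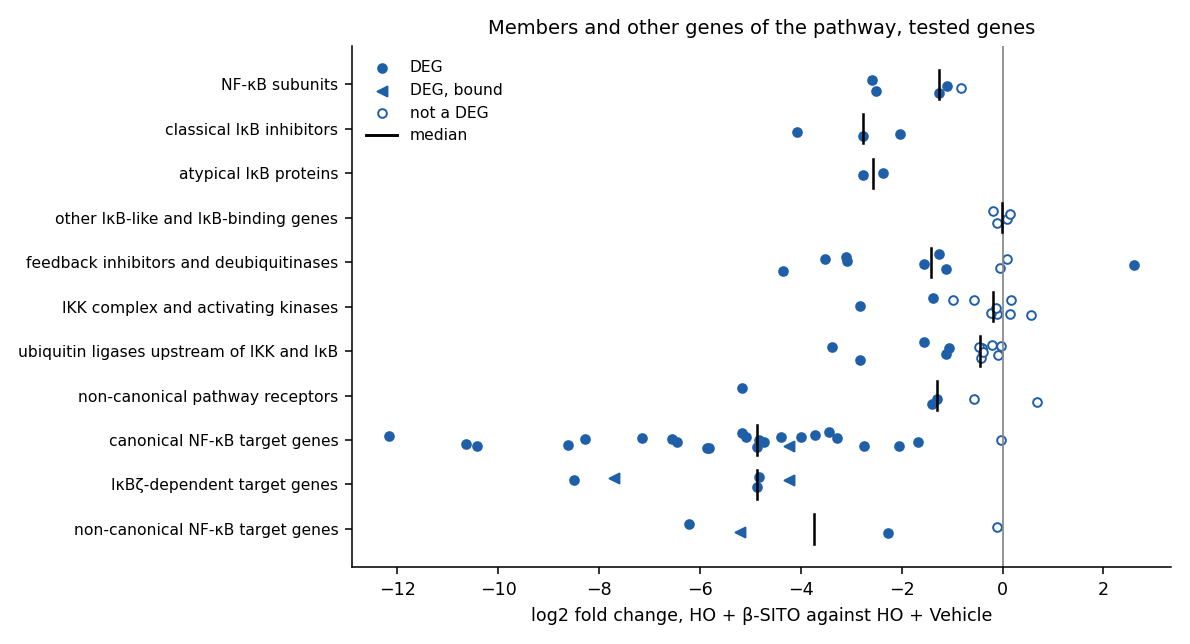
Log2 fold change of HO + β-SITO against HO + Vehicle for each tested gene of the family and of the other pathway lists, with filled points for DEGs, open points for other genes, triangles for genes near 0 counts with β-SITO drawn at their bound, and a bar at the median. The canonical targets lie at a median of −4.87, the classical inhibitors at −2.78, the subunits at −1.27 and the other IκB-like and IκB-binding genes at −0.01.

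The genes whose profile over the 6 libraries was nearest to a member were sought among 71 tested pathway genes. The other members of the family were not among these candidates. The measure was the Euclidean distance between log2 CPM profiles centred on their means, which also reflects the size of the fold change. Nearest to Nfkbia were Csf1 (distance 0.0917) and Ikbke (0.121). Csf1 (0.296) and Birc2 (0.314) were nearest to Nfkb2. The profile of Rela was nearest to Ikbkb (0.334) and Traf2 (0.337).

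The members lie on chromosomes 3, 7, 11, 12, 16, 17 and 19. Relb and Bcl3 are neighbours on chromosome 7, 179 kb apart, with 13 genes between them. Of the 6 of these that were tested, 2 were DEGs, both higher, against 12.8% of all tested genes. Their log2 fold changes ran from −0.71 to 3.84 over the 6 genes. The gene next to Relb, Clptm1, had a log2 fold change of −0.71, and Nectin2, farther towards Bcl3, one of −0.58. Whether the counting used strand was not stated, so reads of genes that overlap on opposite strands cannot be told apart. Nfkb2 overlaps Psd at its 3′ end (log2 fold change −2.23) and 4833438C02Rik at its 5′ end (−1.42), and both were DEGs and lower. Psd reached at most 21.9 CPM and 4833438C02Rik 7.96 CPM, against 257 CPM for Nfkb2. Nfkbib overlaps Sirt2, which was at 109 to 113 CPM with vehicle and 105 to 116 CPM with β-SITO (log2 fold change −0.02, edgeR adjusted p = 0.819). Gm16174, which overlaps Bcl3, stayed at or below 0.690 CPM.

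The label of the cells was checked against marker genes, since several cell types of the heart express NF-κB genes. All 7 cardiomyocyte markers were detected, with a summed level of 4436 to 5274 CPM with vehicle and 4361 to 7526 CPM with β-SITO, and 1 of 7 was a DEG, higher with β-SITO, while at an adjusted p under 0.05 1 was lower (Tnnt2, log2 fold change −0.47) and 3 were higher. Library T4 was the lowest of the β-SITO libraries for these markers, and 9 of the 10 NF-κB and IκB genes were DEGs without it as with it. Markers of other cell types were also present, and the fibroblast markers summed to more CPM than the cardiomyocyte markers in every library. The libraries labelled as NMCMs thus held transcripts of several cell types, and sums over different genes do not give shares of cells. Of all tested genes, 12.8% were DEGs and higher. At an adjusted p under 0.05, 33.8% were lower and 33% higher. The 7 fibroblast markers summed to 23406 to 23953 CPM with vehicle and 34218 to 35339 CPM with β-SITO, with 2 lower and 4 higher at an adjusted p under 0.05. The 7 macrophage markers summed to 1005 to 1110 and 2129 to 2583 CPM, with 5 DEGs, all higher. Of the other macrophage markers, Itgam was higher by less than 2-fold (log2 fold change 0.47, edgeR adjusted p = 1.06e-04). Adgre1 did not pass the test (−0.06, adjusted p = 0.471). The 6 endothelial markers summed to 168 to 197 and 706 to 749 CPM, with 6 DEGs, all higher, and the 5 smooth muscle and pericyte markers to 523 to 588 and 818 to 918 CPM, with 3 DEGs, all higher. In bulk libraries fewer cells of a type and less RNA per cell cannot be told apart. The part of these cell types in the changes of the NF-κB and IκB genes was not tested. The members were lower in the libraries in which the summed macrophage and endothelial markers were higher, though Adgre1 was not.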

How the data were processed

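Total RNA was extracted from the cells, and the 6 libraries made from it were sequenced in paired-end mode. The authors deposited raw counts of reads per gene in a single table. The submitters' processing notes name FastQC, HISAT2, featureCounts and GRCm39, without versions, roles or the strand setting. The sample records name an Illumina library kit and the study's methods an ABclonal mRNA-seq kit. From the deposited counts, genes were filtered with filterByExpr, scaled by TMM and tested with edgeR 4.0.16 (quasi-likelihood, group as the only term, Benjamini-Hochberg over 14799 genes) in R 4.3.3. DESeq2 1.42.0, limma 3.58.1 and other scalings and filters were alternatives. The scripts were tested on simulated data. The biological coefficient of variation was 6.52%. Group means of genes with at most 3 counts in each β-SITO library were set at that floor for bounds. Exon lengths came from GENCODE vM21, which lists 91.4% of the gene identifiers. Promoters came from RefSeq (GRCm38.p6) and were not converted to GRCm39. The members and all gene lists were chosen with earlier results of these data known. Named were the 10 members, fixed kinases and regulators, the 3 most abundant tested genes of each further list, nearest profiles and overlapping or intervening genes. Some genes within this rule are not reported here.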

Additional observations from a re-analysis of the deposited data

How the results depend on the processing

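Under 15 alternatives (other tests, scalings, filters and the removal of each library) no member changed direction, and 8 to 9 of 10 were DEGs. The call of Nfkb1 as a DEG was lost with glmTreat (adjusted p = 0.0772), library size only (log2 fold change −0.96) or upper-quartile scaling (−0.96). The last 2 shifted the median of all genes by 0.148 and 0.143. With these 3 settings the ubiquitin ligases held 3 DEGs that were lower, in place of 5. Without any one library the log2 fold change of Nfkb1 was −1.15 to −1.06, and 9 of 10 members were DEGs. The fibroblast markers held 1 DEG without V3 or T6 or with upper-quartile scaling and 2 with library size only, all higher, in place of 0, and the macrophage markers 3 with glmTreat in place of 5. The shares depended on length. With no division by length, vehicle and β-SITO gave 33.4% and 44.6% for Nfkb1, 34.3% and 16.3% for Nfkb2, 3.68% and 4.40% for Rel, 18.1% and 29.4% for Rela, 10.6% and 5.33% for Relb, 54.2% and 63.0% for Nfkbia, 10.6% and 20.4% for Nfkbib, 35.2% and 16.6% for Nfkbie, and 59.6% and 21.6% for the inhibitor sum against the subunit sum. By principal transcript, a length chosen after seeing the data, they were 26.2% and 36.3% for Nfkb1, 35.3% and 17.4% for Nfkb2, 1.59% and 1.98% for Rel, 21.5% and 36.3% for Rela, 15.5% and 8.09% for Relb, 26.8% and 12% for Nfkbie, 63.7% for Nfkbia with vehicle, and 104% and 40.9% for the sums. The direction of each share and of the sums was the same with all 3 lengths. No paired analysis was possible because the groups share no replicate number. The effect of depth was not tested. Genes with few counts had wider errors, such as Nfkbid with 14 to 23 counts per library (SE 0.288).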
